A study of Homo sapiens with 12 samples.

Results

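The 8 genes described here encode inhibitors of Wnt signalling that are known to be transcribed, in 1 tissue or another, in response to the pathway they restrain: RNF43, ZNRF3, APCDD1, AXIN2, NKD1, DKK1, DKK4 and NOTUM. They were chosen by name, as every probe set whose only gene symbol in the annotation of the array is 1 of the 8. The names were chosen with earlier results of these data known. This gave 14 probe sets: 4 for AXIN2, 3 for NKD1, 2 for APCDD1 and 1 for each of the others, out of 54675 probe sets and 19775 genes on the array.

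The 12 arrays, Affymetrix U133 Plus 2.0, held RNA of Ls174T, a human colorectal carcinoma cell line in which a mutation stabilises β-catenin and keeps the Wnt pathway on. There were 4 groups of 3 arrays each. In Ls174T-pTER-β-catenin cells, doxycycline induces an shRNA, a short hairpin RNA that lowers β-catenin mRNA, and arrays came from untreated cells and from cells induced for 72 h, both groups being labelled 72 h. In Ls174T-L8 cells, doxycycline switches on a dominant-negative Tcf4 transgene, and arrays came from untreated cells and from cells induced for 24 h, both labelled 24 h. Both untreated groups carry their construct uninduced. No doxycycline-treated cells without a construct were analysed here, so the inducer cannot be told apart from what it induces. Line, construct and induction time also differ together between the 2 arms. The sources used here do not say whether a line is 1 clone, which promoter drives a construct, or whether arrays of 1 group stand for separate cultures, and p-values therefore measure the spread between arrays, which may be technical.

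In the Wnt pathway, secreted Wnt ligands bind Frizzled receptors with the co-receptors LRP5 and LRP6. This stops a complex built on the scaffold Axin from marking β-catenin for destruction, and β-catenin then enters the nucleus and activates genes with TCF factors such as Tcf4. Some of those genes encode inhibitors that act back on the pathway at each of its levels, which is why their RNA is widely read as a measure of Wnt activity. RNF43 and ZNRF3 are transmembrane ubiquitin ligases that remove Frizzled receptors from the cell surface. APCDD1 is a membrane protein that binds Wnt and LRP5. AXIN2 is an inducible relative of AXIN1 in the destruction complex, and NKD1 binds Dishevelled, the relay between receptor and complex. DKK1 and DKK4 are secreted Dickkopf proteins, DKK1 being a ligand of LRP5 and LRP6 that blocks their use by Wnt. NOTUM is a secreted enzyme that removes the lipid from Wnt ligands.

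The gene that each construct acts on was read first. The brightest probe set of CTNNB1, the β-catenin gene, fell 24.4-fold with the shRNA (adjusted p = 5.15e-14), and 2 probe sets of TCF7L2, the Tcf4 gene, rose 11.6-fold and 7.55-fold with dominant-negative Tcf4. The brightest TCF7L2 probe set rose 1.65-fold with dominant-negative Tcf4 and 1.67-fold with the shRNA, and the 4 others had ratios of 1.33 to 2.07 with dominant-negative Tcf4. All 14 listed markers of colorectal epithelium passed the filter on dim genes described below. Their summed signal was higher after induction in both lines, 40210 to 46180 against 19280 to 21800 in the shRNA line and 38950 to 43580 against 25920 to 29120 in the dominant-negative Tcf4 line. The brightest markers weigh most in this sum. Singly, by the calls described below, 10 were higher and 1, GPA33, lower with the shRNA, where 16.6% and 17.4% of all genes tested were. With dominant-negative Tcf4 8 were higher and 0 lower, where 16.0% and 20.0% of all genes tested were. Of markers of other cells on the array, 6 of 10 fibroblast genes (ACTA2, COL1A1, LUM, THY1, FAP and DCN), 1 of 7 leukocyte genes (ITGAM) and 1 of 6 endothelial genes (PECAM1) passed. Among those that did not pass were COL3A1, PTPRC and VWF. The summed fibroblast markers lay at 271 to 310 and, after induction, at 404 to 467 in the shRNA line, and at 180 to 198 and 254 to 276 in the other. The leukocyte sum was at most 109 and the endothelial sum at most 71.8 on any array. The part of these markers in the results below was not tested. RNA was taken from whole cultures, so fewer cells expressing a gene and less RNA per cell cannot be told apart.

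Upstream sequence in RefSeq (GRCh38.p14) is shown for 3 of the 8 genes. No window was found for AXIN2, NKD1, ZNRF3 or NOTUM, and DKK4 was left out. The 3 were therefore not picked by how they responded. APCDD1 and RNF43 fell in both lines, and DKK1 rose with dominant-negative Tcf4. A link between the motif and these responses was not tested. Each line gives the 250 bases before the annotated start, 5′ to 3′ on the strand of the gene, with matches to the TCF core motif CTTTGAA or CTTTGAT on either strand in capitals.
APCDD1, chr18:10454385-10454634, plus strand: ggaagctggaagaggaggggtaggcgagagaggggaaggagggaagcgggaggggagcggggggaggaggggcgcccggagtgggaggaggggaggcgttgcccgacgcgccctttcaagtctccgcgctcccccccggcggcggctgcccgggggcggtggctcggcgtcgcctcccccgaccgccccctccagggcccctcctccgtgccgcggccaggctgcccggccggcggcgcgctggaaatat
RNF43, chr17:58417535-58417784, minus strand: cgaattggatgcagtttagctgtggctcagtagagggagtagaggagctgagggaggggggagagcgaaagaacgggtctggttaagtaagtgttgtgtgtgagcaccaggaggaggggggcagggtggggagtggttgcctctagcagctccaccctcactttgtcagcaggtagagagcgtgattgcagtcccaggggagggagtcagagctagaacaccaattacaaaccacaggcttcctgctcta
DKK1, chr10:52314031-52314280, plus strand: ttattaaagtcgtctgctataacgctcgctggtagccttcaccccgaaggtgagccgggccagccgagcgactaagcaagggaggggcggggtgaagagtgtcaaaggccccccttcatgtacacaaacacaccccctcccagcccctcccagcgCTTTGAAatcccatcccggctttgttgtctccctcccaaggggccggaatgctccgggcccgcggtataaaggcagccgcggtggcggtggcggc
The only match among the 3 was CTTTGAA in the DKK1 window, at positions -95 to -89 from the start. A second RNF43 window, before another annotated start, had no match either. Of all 35116 such windows 5.94% held at least 1 match, 3.8% CTTTGAA and 2.26% CTTTGAT. A match describes letters in the sequence and no bound site, and windows of this length leave distant sites unread.

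Signals are MAS5 signals on a linear scale in arbitrary units, scaled per array by the authors. They hold no detection calls. For tests each gene was read by its brightest probe set, by mean log2 over the 12 arrays with signals under 1 set to 1. A filter kept genes whose mean reached the median probe set, a signal of 10.2. RNF43, ZNRF3, APCDD1, AXIN2, NKD1 and DKK1 passed, NOTUM missed by a small margin with a mean log2 signal of 3.347 against 3.355, and DKK4 missed with 2.344. Calls were made with limma at a Benjamini-Hochberg adjusted p under 0.05 over all 12386 genes tested, and changes are log2 differences, induced minus uninduced, ± standard error. Median signals per array lay between 12.1 and 15.3. Whether the signals of groups overlap is given for the members as a description only. The share of all genes without overlap was not counted.

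**Figure D1:**
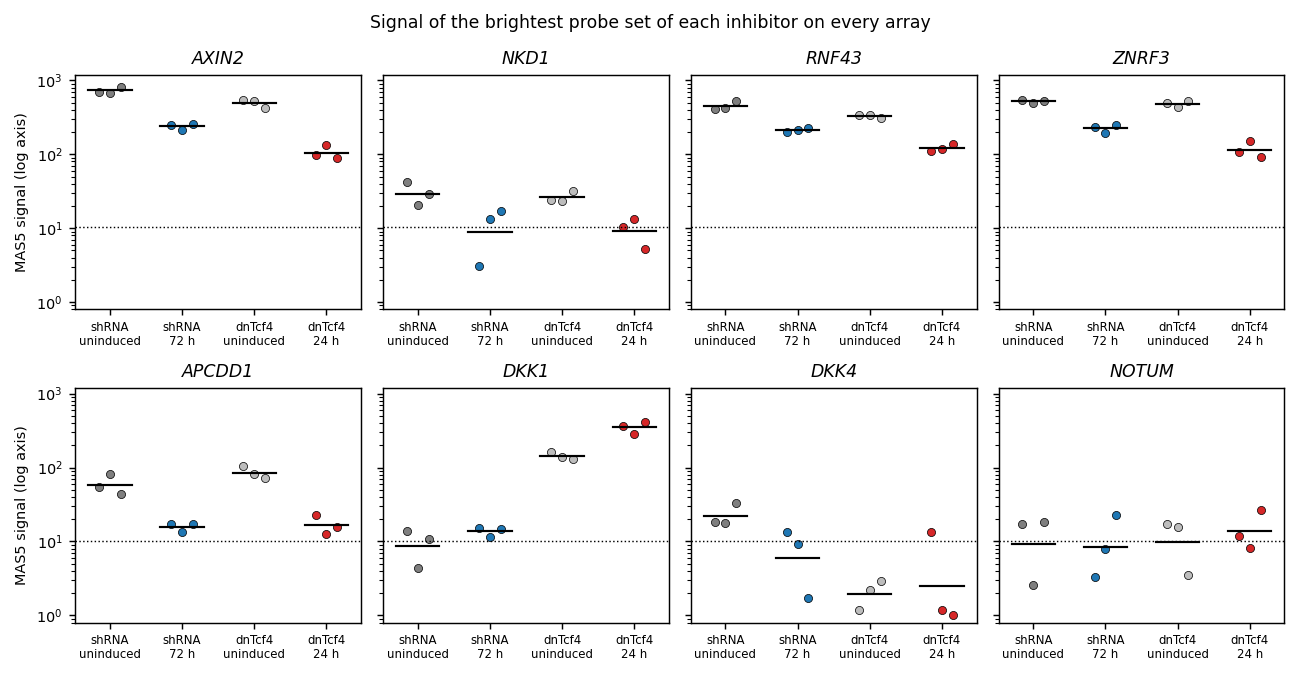
MAS5 signal (arbitrary units, log axis) of the brightest probe set of each of the 8 genes on each of the 12 arrays, by group. Points are arrays, bars are geometric means of 3 arrays, the dotted line is the filter at a signal of 10.2, and a value under 1 is drawn at 1. AXIN2, RNF43, ZNRF3 and APCDD1 are lower on every induced array than on every uninduced array of the same line, and DKK1 is between 132.7 and 410.3 in the dominant-negative Tcf4 line but at most 15.4 in the shRNA line. How many of all genes separate in this way was not counted.

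After 72 h of β-catenin knockdown, the receptor ligases RNF43 and ZNRF3, the membrane inhibitor APCDD1 and the intracellular inhibitors AXIN2 and NKD1 were called lower. Their induced levels were between 27.3% and 47.7% of the uninduced ones. The NKD1 call was not secure, and was lost with no filter (adjusted p = 0.0606) and without some single arrays, as given below. The geometric mean of NKD1 was over the filter only in the uninduced groups, 29.4 and 26.1 against 8.9 and 9.0 in the induced groups. No gene of the 6 tested was called higher, although DKK1 moved upward by 0.66 without a call, as detailed below. That made 5 lower and 0 higher of the 6 tested, where 17.4% of all genes tested were called lower and 16.6% higher. The median change of the 6 was -1.40, against 0.02 over all genes tested. These counts and medians describe only the 6 genes that passed the filter. Because the members were chosen with earlier results of these data known, they are no independent evidence.

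With dominant-negative Tcf4 for 24 h, RNF43, ZNRF3, APCDD1 and AXIN2 fell, to between 19.4% and 36.9% of the uninduced level, and DKK1 rose 2.42-fold. For NKD1 the change was -1.53 ± 0.59 and missed the threshold (adjusted p = 0.0525). The count was 4 lower and 1 higher of 6, where 20.0% of all genes tested were called lower and 16.0% higher. The median change was -1.80, against -0.05 over all genes tested. The same limits hold for this count and median. Beside these results, a measure of RNA quality also moved. The log2 ratio of 3′ to 5′ control probe sets was 0.18 to 0.21 for ACTB after induction of dominant-negative Tcf4 and 0.32 to 0.43 before, and -0.05 to -0.03 against -0.01 to 0.01 for GAPDH. In the shRNA line these ranges overlapped, at 0.37 to 0.43 and 0.40 to 0.48 for ACTB. Their part in the result was not tested.

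**Figure D2:**
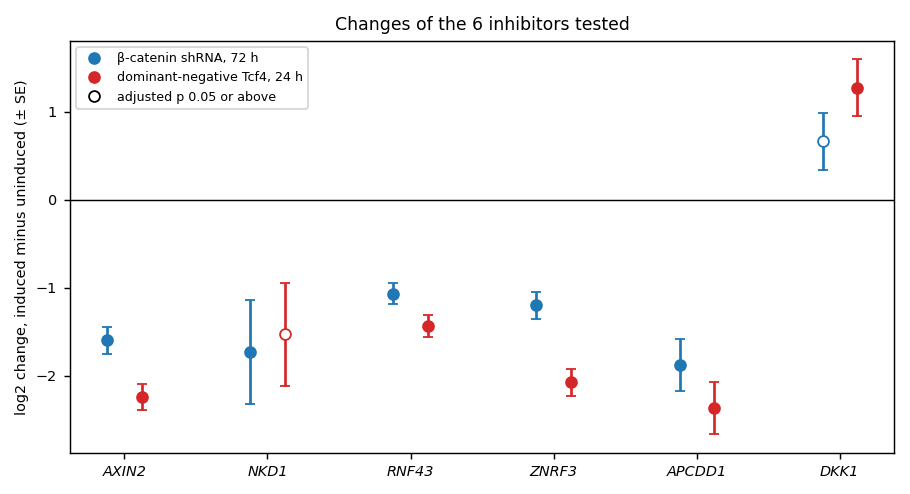
Log2 change, induced minus uninduced (± standard error, 3 arrays per group), of the 6 inhibitors tested, with the β-catenin shRNA at 72 h in blue and dominant-negative Tcf4 at 24 h in red. Open symbols did not pass an adjusted p of 0.05. The 5 genes other than DKK1 lie between -1.07 and -2.37, and DKK1 lies above 0 at 0.66 and 1.28.

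The 2 receptor ligases were measured by 1 probe set each. For RNF43 (218704_at), the uninduced shRNA arrays read 414.8, 418.5 and 523.6 and the induced ones 203, 215 and 226.1. In the dominant-negative Tcf4 line the signals were 335.4, 344.5 and 311.4 before and 110.9, 117.5 and 139 after induction. No 2 of the 4 groups overlapped, and RNF43 stood highest in the uninduced shRNA line, then in the uninduced dominant-negative Tcf4 line, then after the shRNA, and lowest after dominant-negative Tcf4. RNF43 fell 2.10-fold with the shRNA (-1.07 ± 0.12, adjusted p = 4.25e-06) and 2.71-fold with dominant-negative Tcf4 (-1.44 ± 0.12, adjusted p = 1.97e-07).

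ZNRF3 (226360_at), the closest relative of RNF43, read 538.6, 497.3 and 530.4 in uninduced shRNA cells and 236.2, 196.9 and 251.9 after induction. Its signals in the other line were 489.9, 436.9 and 519.1 before and 105.9, 152.1 and 92.5 after induction. The uninduced lines overlapped, both induced groups lay below them, and the dominant-negative Tcf4 arrays lay below all shRNA arrays. ZNRF3 fell 2.30-fold with the shRNA (-1.20 ± 0.15, adjusted p = 1.47e-05) and 4.21-fold with dominant-negative Tcf4 (-2.07 ± 0.15, adjusted p = 4.58e-08). Both ligases fell in both lines, and the decrease of ZNRF3 with dominant-negative Tcf4 ranked 29 among 12386 genes while that of RNF43 ranked 126.

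APCDD1 fell to 27.3% of its uninduced level with the shRNA and to 19.4% with dominant-negative Tcf4. Its brighter probe set, 225016_at, read 54.2, 81.9 and 44 in uninduced shRNA cells and 17.2, 13.4 and 17.2 after induction. In the dominant-negative Tcf4 line it read 104.2, 81.2 and 72.6 before and 22.7, 12.5 and 15.7 after induction. Both uninduced groups overlapped, both induced groups overlapped, and the induced values lay below all uninduced ones. APCDD1 fell 3.67-fold with the shRNA (-1.87 ± 0.29, adjusted p = 0.000106) and 5.17-fold with dominant-negative Tcf4 (-2.37 ± 0.29, adjusted p = 1.1e-05), which ranked 75 and 15 among the decreases of all genes tested. The second APCDD1 probe set stayed between 3.5 and 16.1 on every array, with changes of -0.09 and 0.04 that did not pass (adjusted p = 0.972 and 0.991 over all probe sets).

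AXIN2, the inducible scaffold of the destruction complex, is the member with the most probe sets. The brightest, 222696_at, read 706.3, 666.7 and 825.2 in uninduced shRNA cells and 250.4, 216.2 and 258 after induction, and 542.8, 522.8 and 429.5 before and 97.5, 133.8 and 88.5 after dominant-negative Tcf4. Again no 2 groups overlapped, in the same order as for RNF43. AXIN2 fell 3.03-fold with the shRNA (-1.60 ± 0.15, adjusted p = 4.36e-07) and 4.73-fold with dominant-negative Tcf4 (-2.24 ± 0.15, adjusted p = 1.23e-08), with ranks of 141 and 21 among decreases. In a fit over all 54613 probe sets that are not controls, with no filter, the 4 AXIN2 probe sets were called lower with the shRNA, and 3 of them with dominant-negative Tcf4. Their changes were -1.60, -1.79, -1.95 and -3.86 with the shRNA, from the brightest to the dimmest. With dominant-negative Tcf4 they were -2.24, -2.01, -2.83 and -1.94, of which the last missed (adjusted p = 0.0728). The dimmest probe set, with the largest change, read 20.3, 3.4 and 2.2 after the shRNA, so its size rests on signals under the filter, and its name marks it as one that may cross-hybridise.

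NKD1, the Dishevelled-binding inhibitor, was dim. Its brightest probe set, 232203_at, read 42.7, 20.3 and 29.3 in uninduced shRNA cells and 3.1, 13.3 and 16.9 after induction. It read 23.9, 23.4 and 31.8 before and 10.5, 13.5 and 5.2 after dominant-negative Tcf4. Every induced value lay below every uninduced one, but the spread was wide. NKD1 fell by 1.73 ± 0.59 with the shRNA (adjusted p = 0.0313). This call was lost without shRNA induced replicate 1 (-0.97, adjusted p = 0.149), without shRNA uninduced replicate 1 (-1.46, adjusted p = 0.123) or 3 (-1.73, adjusted p = 0.067), with no filter, and with the replicate number as a block (adjusted p = 0.0564). The change with dominant-negative Tcf4 passed when only the arrays compared were fitted (adjusted p = 0.0166), with an offset of 3.5 (-1.22, adjusted p = 0.0315), and without dominant-negative Tcf4 induced replicate 2 (-1.82, adjusted p = 0.0453) or shRNA induced replicate 1 (-1.53, adjusted p = 0.0112) or 3 (-1.53, adjusted p = 0.0427).

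The 2 other NKD1 probe sets did not move alike. The first had a change of 1.11 ± 0.69 with the shRNA, which did not pass (adjusted p = 0.414), and -0.89 ± 0.69 with dominant-negative Tcf4 (adjusted p = 0.572). The second read 12.1, 13.5 and 23.2 before and 1.8, 4.3 and 1 after dominant-negative Tcf4, and fell by 2.98 ± 0.93 (adjusted p = 0.0483). The induced signals lay at or near the floor of 1, so the size of this fall rests on dim signals. Whether the call, close to the threshold, holds under other settings is not given here. With the shRNA this second probe set read 2.8, 2.8 and 28 after induction, a change of -0.36 ± 0.93 (adjusted p = 0.895). In the fit over all probe sets the brightest NKD1 probe set passed in neither line (adjusted p = 0.0858 and 0.14).

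**Figure D3:**
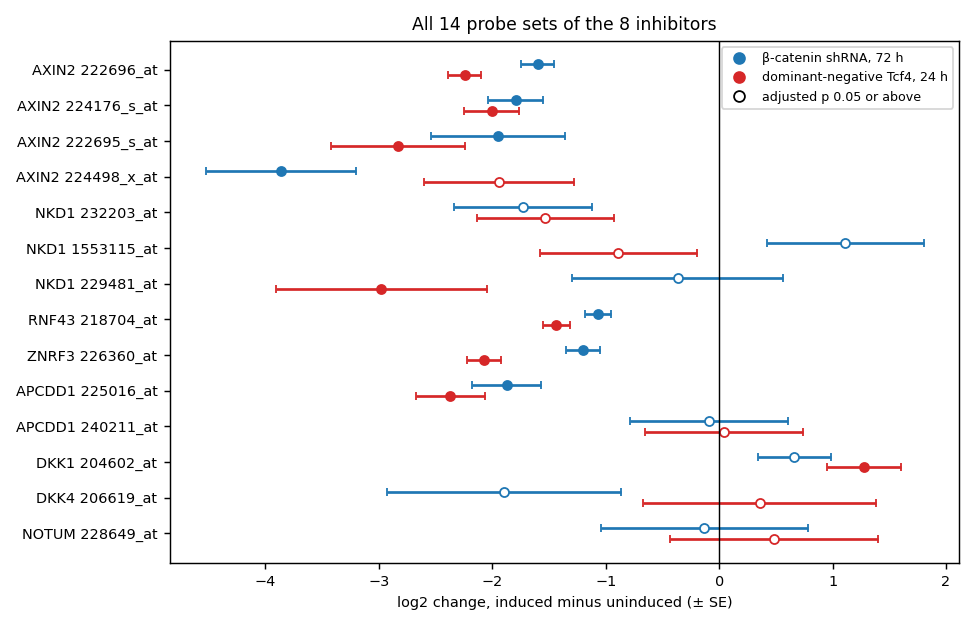
Log2 change, induced minus uninduced (± standard error), of all 14 probe sets of the 8 genes, from the fit over all probe sets, with the β-catenin shRNA in blue and dominant-negative Tcf4 in red. Filled symbols passed an adjusted p of 0.05: 7 lower with the shRNA, and 7 lower and 1 higher with dominant-negative Tcf4.

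Over all probe sets 5.76% were called lower and 5.33% higher with the shRNA, against 7 and 0 of the 14. With dominant-negative Tcf4 6.06% were called lower and 5.34% higher, against 7 and 1 of the 14. The difference of the changes in the 2 lines was called for 1 of the 14, ZNRF3, which was higher, as were 2.17% of all probe sets (adjusted p = 0.0254). In this fit the ZNRF3 call was lost with no variance trend (adjusted p = 0.224), with the replicate number as a block (adjusted p = 0.0513), and without any 1 of 8 arrays, namely replicate 1 or 3 of either induced group, replicate 1 or 3 of the uninduced dominant-negative Tcf4 group, or replicate 1 or 2 of the uninduced shRNA group, with values of 0.72 to 0.90. The 14 are not independent, since 9 of them read AXIN2, NKD1 or APCDD1.

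The secreted inhibitors are DKK1, DKK4 and NOTUM. DKK1 (204602_at), the LRP5 and LRP6 antagonist, read 163.7, 140.7 and 132.7 in uninduced dominant-negative Tcf4 cells and 365.1, 289.2 and 410.3 after induction. In the shRNA line it read 13.9, 4.4 and 10.8 before and 15.4, 11.6 and 14.7 after induction. The groups of the dominant-negative Tcf4 line did not overlap with each other or with the shRNA line, whereas those of the shRNA line did. DKK1 rose by 1.28 ± 0.32 with dominant-negative Tcf4 (adjusted p = 0.00501), and its change of 0.66 ± 0.32 with the shRNA did not pass (adjusted p = 0.127). Without shRNA uninduced replicate 1 that change was 1.001 and passed (adjusted p = 0.0218), and it also passed with array quality weights (0.97, adjusted p = 0.0375), while without shRNA uninduced replicate 2 it was 0.17.

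DKK4 (206619_at), the other Dickkopf gene, was dim throughout, with a geometric mean under the filter in 3 of the 4 groups. It read 18.6, 18 and 33.1 in uninduced shRNA cells and 13.6, 9.3 and 1.7 after induction, without overlap. In the dominant-negative Tcf4 line it read 1.2, 2.2 and 2.9 before and 13.4, 1.2 and 0.9 after induction, with overlap. Neither change passed in the fit over all probe sets, -1.90 ± 1.03 with the shRNA (adjusted p = 0.327) and 0.36 ± 1.03 with dominant-negative Tcf4 (adjusted p = 0.923).

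NOTUM (228649_at), the Wnt-inactivating enzyme, read from 2.6 to 26.7 with overlap between all 4 groups. Its changes were -0.13 ± 0.91 with the shRNA (adjusted p = 0.968) and 0.49 ± 0.91 with dominant-negative Tcf4 (adjusted p = 0.866). With standard errors this wide, a 2-fold change, which is 1 on this scale, was not detectable in NOTUM or DKK4.

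The change in 1 line was then set against that in the other by the difference of the changes, shRNA minus dominant-negative Tcf4. ZNRF3 fell less with the shRNA, by a difference of 0.87 ± 0.22 (adjusted p = 0.0109), and so did AXIN2, by 0.64 ± 0.21 (adjusted p = 0.0454). These 2 of 6 were called higher in this comparison, where 9.03% of all genes tested were called higher and 8.61% lower. The differences for RNF43 (0.37 ± 0.17, adjusted p = 0.162), APCDD1 (0.49 ± 0.42, adjusted p = 0.471), NKD1 (-0.20 ± 0.83, adjusted p = 0.908) and DKK1 (-0.61 ± 0.45, adjusted p = 0.4) did not pass. The AXIN2 call was close to the threshold and was lost with each array centred on its median (0.60, adjusted p = 0.104) and without any 1 of 8 arrays, while the ZNRF3 call over the genes tested passed under each alternative that was run. For DKK1 the difference passed without shRNA uninduced replicate 2 (-1.10, adjusted p = 0.0209).

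**Figure D4:**
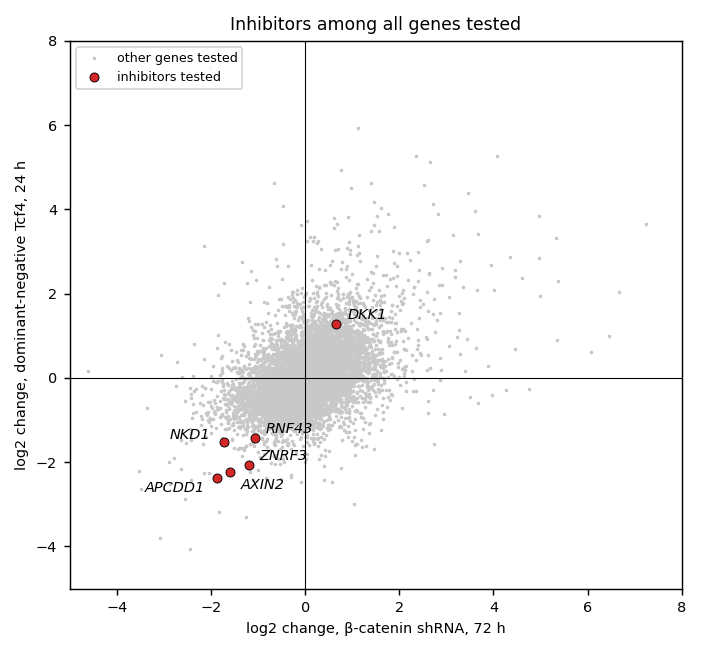
Log2 change with the β-catenin shRNA (horizontal) and with dominant-negative Tcf4 (vertical) for each of the 12386 genes tested. The 6 inhibitors tested are red, and 5 of them lie in the lower left with DKK1 in the upper right. AXIN2 is at -1.60 and -2.24, and APCDD1 at -1.87 and -2.37.

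The uninduced lines already differed in some of these genes. DKK1 was 16.7-fold higher in uninduced dominant-negative Tcf4 cells than in uninduced shRNA cells (4.06 ± 0.32, adjusted p = 5.58e-08). Its signals in the shRNA line lay near the filter and carry no detection calls, so the size of this fold depends on how dim signals are treated, and with an offset of 3.5 added before log2 the difference was 3.57. AXIN2 was lower (-0.56 ± 0.15, adjusted p = 0.00741) and RNF43 likewise (-0.45 ± 0.12, adjusted p = 0.00868). ZNRF3 (-0.12), APCDD1 (0.55) and NKD1 (-0.17) did not pass. This made 2 lower and 1 higher of 6, where 20.5% of genes were called lower and 16.9% higher. The RNF43 call was lost when arrays were centred on their medians (-0.33, adjusted p = 0.0814), where the split over all genes turned from 2536 lower and 2089 higher to 1668 and 2426. DKK4 differed the other way from DKK1, at -3.50 ± 1.03 in the fit over all probe sets (adjusted p = 0.0315), where 6.87% of probe sets were called lower, with all of its dominant-negative Tcf4 values before induction at 2.9 or less, near the floor of 1. With the offset it was -2.22, and the call was lost with no variance trend (adjusted p = 0.0799) and without any 1 of the 6 uninduced arrays (-3.14 to -3.78, adjusted p = 0.0561 to 0.118).

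After induction 4 of the 6 genes tested differed between the lines. DKK1 was 25.5-fold higher after dominant-negative Tcf4 than after the shRNA (4.67 ± 0.32, adjusted p = 5.96e-09). AXIN2 (-1.20 ± 0.15, adjusted p = 4.79e-06), ZNRF3 (-0.99 ± 0.15, adjusted p = 5.3e-05) and RNF43 (-0.82 ± 0.12, adjusted p = 3.49e-05) were lower. This made 3 lower and 1 higher of 6, where 26.9% of genes were called lower and 21.1% higher. Over all genes that is 3328 lower and 2612 higher, and with arrays centred on their medians 2307 and 3189. APCDD1 (0.06 ± 0.29) and NKD1 (0.03 ± 0.59) did not pass.

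The members' signals were also compared with each other across the 12 arrays, as a description, since arrays of a group share their treatment and the 4 group levels dominate. AXIN2 correlated with ZNRF3 at r = 0.981 and with RNF43 at r = 0.978. Its 3 most similar genes of all those tested were ZNRF3, MYB, a transcription factor of progenitor cells (r = 0.978), and RNF43. The 3 nearest to ZNRF3 were MYB (r = 0.986), UNG, a DNA repair glycosylase (r = 0.983), and PAICS, a purine synthesis enzyme (r = 0.982). Those nearest to RNF43 were AXIN2, the ephrin receptor gene EPHB3 (r = 0.978) and MRPS26, of the mitochondrial ribosome (r = 0.973). With the group means taken out, AXIN2 and ZNRF3 still had r = 0.719 over the 12 arrays, whereas AXIN2 and RNF43 had 0.151 and RNF43 and ZNRF3 had -0.283.

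APCDD1 was most like HSPE1, a mitochondrial chaperonin (r = 0.957), SLC25A15, a mitochondrial ornithine carrier (r = 0.956), and MLEC, a lectin of the endoplasmic reticulum (r = 0.956). NKD1 was most like AARS2 (r = 0.904), DUSP18 (r = 0.894) and PLCG1 (r = 0.887). DKK1 stood apart from the others, with r between -0.61 and -0.0921 to the 5 other members tested. Its nearest genes, VPS4B (r = 0.985), KLK11 (r = 0.985) and UBQLN1 (r = 0.984), had changes of 0.45, 0.44 and 0.13 with the shRNA and 0.56, 0.81 and 0.04 with dominant-negative Tcf4.

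The lists of other pathway genes are read against the shares of all genes tested given above, 17.4% lower and 16.6% higher with the shRNA and 20.0% lower and 16.0% higher with dominant-negative Tcf4. Of 16 other inhibitors that are secreted or act outside the cell, 3 were tested. With the shRNA 1 fell (median -0.53 against 0.02 over all genes tested), and with dominant-negative Tcf4 2 fell (median -0.91 against -0.05). TRABD2A, a membrane protease that cleaves Wnt ligands, fell by 0.53 ± 0.14 with the shRNA, from 1204 to 836 (adjusted p = 0.00697). It fell by 2.05 ± 0.14 with dominant-negative Tcf4, from 549 to 133 (adjusted p = 1.44e-08), and these changes differed by 1.52 ± 0.20 (adjusted p = 5.98e-05). IGFBP4, a growth factor binding protein that also binds Wnt receptors, fell by 0.91 ± 0.22 with dominant-negative Tcf4 (adjusted p = 0.00363), and its change of -0.55 ± 0.22 with the shRNA missed the threshold (adjusted p = 0.0615).

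Of 25 other inhibitors inside the cell or in its membrane, 17 were tested. With the shRNA 4 fell and 1 rose (median -0.07), and with dominant-negative Tcf4 3 fell and 3 rose (median 0.03), the latter count being 2 and 1 with the stricter filter. KREMEN2 and KREMEN1, receptors for Dickkopf proteins, fell with the shRNA (-0.94 ± 0.27, adjusted p = 0.0118, and -0.54 ± 0.18, adjusted p = 0.0292), and KREMEN1 also fell by 0.72 ± 0.18 with dominant-negative Tcf4 (adjusted p = 0.00507), where KREMEN2 had -0.20 ± 0.27 (adjusted p = 0.61). HBP1, a repressor that binds TCF factors, rose by 0.55 ± 0.12 with the shRNA (adjusted p = 0.0018) and rose by 0.84 ± 0.12 with dominant-negative Tcf4 (adjusted p = 4.41e-05). TLE5 and TLE3, of the Groucho corepressor family, fell with the shRNA (-0.65 ± 0.12, adjusted p = 0.000353) and with dominant-negative Tcf4 (-0.76 ± 0.17, adjusted p = 0.00205), respectively. The other change of each did not pass, 0.22 ± 0.12 for TLE5 with dominant-negative Tcf4 and 0.07 ± 0.17 for TLE3 with the shRNA. CTNNBIP1, which keeps β-catenin from TCF factors, rose by 0.75 ± 0.28 with dominant-negative Tcf4 (adjusted p = 0.0473), against 0.38 ± 0.28 with the shRNA (adjusted p = 0.335). The count of 5 with the shRNA was 3 with no filter and without shRNA induced replicate 2 or shRNA uninduced replicate 1.

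The ligands, receptors and R-spondin partners on which these inhibitors act had 21 of 43 listed genes tested. With the shRNA 5 fell and 3 rose (median -0.09), and with dominant-negative Tcf4 3 fell and 2 rose (median -0.04). Without probe sets whose names end in _x_at or _s_at, as those of WNT10A, FZD5 and LGR4 do, 4 fell and 0 rose with the shRNA and 3 fell and 0 rose with dominant-negative Tcf4. LGR5, a receptor through which R-spondins clear RNF43 and ZNRF3 from the membrane, fell with the shRNA (-1.55 ± 0.12, adjusted p = 3.79e-08) and with dominant-negative Tcf4 (-2.23 ± 0.12, adjusted p = 8.67e-10). LGR4, its relative, rose by 0.77 ± 0.13 with the shRNA (adjusted p = 0.000204) and rose by 0.87 ± 0.13 with dominant-negative Tcf4 (adjusted p = 7.12e-05). FZD5, a Frizzled receptor, rose by 0.78 ± 0.10 with the shRNA (adjusted p = 2.14e-05) and rose by 0.76 ± 0.10 with dominant-negative Tcf4 (adjusted p = 2.64e-05). FZD1 fell with the shRNA (-0.71 ± 0.14, adjusted p = 0.000646) and with dominant-negative Tcf4 (-0.70 ± 0.14, adjusted p = 0.000796). DVL2, a Dishevelled, also fell in both (-0.83 ± 0.15, adjusted p = 0.000368, and -0.40 ± 0.15, adjusted p = 0.0448). WNT10A, a ligand, rose by 1.24 ± 0.25 with the shRNA (adjusted p = 0.00101) and had a value of 0.06 ± 0.25 with dominant-negative Tcf4 (adjusted p = 0.894).

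Among other Wnt/TCF target genes, a list that also holds LGR5, 20 of 25 were tested. With the shRNA 13 fell and 1 rose (median -0.74), and with dominant-negative Tcf4 12 fell and 3 rose (median -1.22), beside 17.4% lower and 16.6% higher, and 20.0% lower and 16.0% higher, of all genes. ASCL2, an intestinal stem cell transcription factor, fell with the shRNA (-3.07 ± 0.17, adjusted p = 9.8e-10) and with dominant-negative Tcf4 (-3.81 ± 0.17, adjusted p = 1.73e-10). EPHB3 fell likewise (-2.55 ± 0.11, adjusted p = 3.73e-11, and -2.88 ± 0.11, adjusted p = 5.12e-11). ETS2 fell in both as well (-1.55 ± 0.10, adjusted p = 7.58e-09, and -1.46 ± 0.10, adjusted p = 2.02e-08). PLAUR, the urokinase receptor, rose by 0.57 ± 0.16 with the shRNA (adjusted p = 0.0104) and rose by 2.78 ± 0.16 with dominant-negative Tcf4, from 89.5 to 612 (adjusted p = 2.84e-09). This list was written with earlier results of these arrays known, so its direction is no independent evidence.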

How the data were processed

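The deposited table gives 1 MAS5 signal, a linear intensity, per probe set and array. Per the submitters' processing notes MAS5 and GCOS were used. Tool versions and genome build: not given in the sources used here. Scaling by the authors left each array with a trimmed mean of 100.0, taken over the middle 96% of its signals. Signals under 1, 6.58% to 9.25% per array, were set to 1 before log2.

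Of 54675 probe sets, 41097 had 1 symbol, 1801 several and 11777 none here. Symbols were updated through Entrez numbers except for 54. Named were the 8 members, the genes the constructs act on, up to 4 called genes of largest change per pathway list and induction, and the 3 genes nearest to each member tested by Pearson correlation. The members and lists were chosen with earlier results of these data known.

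The 4 group means were modelled in limma 3.58.1 (R 4.3.3, 8 residual degrees of freedom, variance trend), with 5 contrasts. A second fit took all 54613 probe sets that are not controls. On simulated data with 12386 genes, 73% of 100 genes altered 2-fold and 89% of 100 altered 4-fold were recovered for the shRNA, and 66% and 90% for dominant-negative Tcf4. Simulated calls numbered 168 and 164, of which 6 and 8 were false, against 4217 and 4455 calls in the data. With so few genes altered the adjusted threshold was stricter in the simulation, so these shares need not hold for the data. Precision is limited by the number of arrays. Alternatives were 10 other settings and leaving out each of the 12 arrays.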

Additional observations from a re-analysis of the deposited data

Results flagged for a closer look

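The change of 2 members differed between the lines, by the test of the difference itself. That of ZNRF3 was 0.87 (log2, shRNA minus dominant-negative Tcf4; adjusted p = 0.0109) and that of AXIN2 was 0.64 (adjusted p = 0.0454). Neither is secure in the fit over all probe sets, where AXIN2 was not called (adjusted p = 0.101) and the ZNRF3 call was lost in 10 of 18 other settings. By the brightest probe set of each, all 3 arrays after dominant-negative Tcf4 for 24 h lay below all 3 arrays after the shRNA for 72 h. AXIN2 was already lower in the uninduced dominant-negative Tcf4 line (-0.56, adjusted p = 0.00741). Of its other probe sets, 222695_s_at and 224498_x_at overlapped between the induced groups. The differences for 224176_s_at, 222695_s_at and 224498_x_at were 0.21, 0.88 and -1.92 in the fit over all probe sets (adjusted p = 0.86, 0.714 and 0.353). Line, construct and time cannot be told apart in either difference.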

How the results depend on the processing

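Of the values of the 6 members tested under other settings, 601 stayed on the same side of the threshold, 18 lost a call and 8 gained one, and none reversed while called. The call for the difference of the changes of AXIN2 was lost with median centring, quantile normalization, no filter or no variance trend, which left 1 of the 2 members called in that comparison. Without single arrays that count was 1 to 2, and the AXIN2 value was 0.52 to 0.62 where its call was lost, namely without replicate 1 or 2 of either uninduced group or replicate 1 or 3 of either induced group. With the stricter filter on dim genes, at the 75th percentile, 3 members were tested and all 3 were called lower in each induction. The share of all genes called with that filter is not given here. Deviations of same-numbered arrays within a line correlated between -0.0779 and 0.0378, and the numbers were not treated as pairs. Deviations within groups of 3 arrays depend on each other, so this check cannot settle whether same-numbered arrays shared a culture or a day. With the replicate block 4 members were called with the shRNA (NKD1 was lost, adjusted p = 0.0564) and 5 with dominant-negative Tcf4, while AXIN2 and ZNRF3 stayed called in the difference of the changes (adjusted p = 0.0266 and 0.0232). The share of all genes called with the block is not given here either. The block gives no value for the 2 uninduced or the 2 induced groups set against each other. Centring on medians moved the median of all genes between the uninduced lines from -0.03 to 0.09 and between the induced lines from -0.08 to 0.08. Of the other inhibitors that are secreted or act outside the cell, 2, not 1, were called with the shRNA under some settings. These were the replicate block, median centring, the stricter filter and only the arrays compared. The same held without dominant-negative Tcf4 induced replicate 1 or 3, or without shRNA induced replicate 3. Signals near or under 10.2 limit what can be said of NKD1, DKK4, NOTUM and, in the shRNA line, DKK1.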
